A study of Homo sapiens with 4 samples.

Results

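SOX5 and COG5 are the protein-coding genes with the most BRD8 peaks in SW480 cells among genes of at least 100 kb, and both are nearly empty of peaks in HCT116 cells. A peak was assigned to a gene when its summit lay inside the annotated gene or within 1 kb of either end. By this rule 173 of 12874 SW480 regions and 1 of 22303 HCT116 regions on chromosomes 1 to 22 and X belonged to the 2 genes. SOX5 held 121 of the SW480 regions and none of the HCT116 regions, and COG5 held 52 SW480 regions and the single HCT116 region. The genes were chosen by these counts, which are therefore given as a description, with no test.

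The data are chromatin immunoprecipitation sequencing (ChIP-seq) peak lists for BRD8 in SW480 and HCT116, both established human colorectal cancer cell lines. The labels name no treatment or engineered change for either line, and both were fixed in formaldehyde and digested with micrococcal nuclease before precipitation with the same polyclonal antibody. Each line contributed 1 BRD8 library, analysed here as its peak list, and 1 input library. No source used here states whether the peak caller took its local background from the input, which is not otherwise used here. With 1 BRD8 library per line there are no replicates, so differences between SW480 and HCT116 describe these libraries, and all intervals cover counting error only. RNA was not measured, so the activity of either gene in these cells is not known from these data.

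BRD8 is a bromodomain subunit of the TIP60/NuA4 complex, a histone acetyltransferase that acts on nucleosomes. The complex is best known at the promoters of active genes, where acetylation of histone H4 and of H2A variants accompanies transcription. SOX5 encodes a transcription factor of the SOXD group, which binds DNA through a high-mobility-group box and acts with SOX6 and SOX9 in cartilage formation. COG5 encodes a subunit of the conserved oligomeric Golgi complex, a tether for vesicles that return to and move within the Golgi, and its loss disturbs protein glycosylation.

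SOX5 spans 1.03 Mb of chromosome 12 (chr12:23529504-24562650, GRCh38), and COG5 spans 362.5 kb of chromosome 7 (chr7:107201372-107563920). Both are transcribed from the minus strand, so the 5′ start is the high-coordinate end. The promoter windows of RefSeq (GRCh38.p14) run from 250 bases before to 50 bases after a start. They are shown for SOX5, whose window had no peak in either line, for COG5, whose window had a peak in both, and for GPR22, a gene inside COG5 whose window had a peak in SW480 alone. Each is written 5′ to 3′ along the transcribed strand, and the capitals mark CG dinucleotides.
SOX5 promoter, minus strand, chr12:24562442-24562741: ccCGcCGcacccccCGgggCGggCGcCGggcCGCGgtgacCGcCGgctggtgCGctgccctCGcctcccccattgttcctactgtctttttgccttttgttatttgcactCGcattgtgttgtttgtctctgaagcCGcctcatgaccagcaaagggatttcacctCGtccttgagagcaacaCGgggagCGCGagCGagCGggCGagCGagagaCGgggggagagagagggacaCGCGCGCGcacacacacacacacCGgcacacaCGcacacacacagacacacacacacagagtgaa
COG5 promoter, minus strand, chr7:107563871-107564170: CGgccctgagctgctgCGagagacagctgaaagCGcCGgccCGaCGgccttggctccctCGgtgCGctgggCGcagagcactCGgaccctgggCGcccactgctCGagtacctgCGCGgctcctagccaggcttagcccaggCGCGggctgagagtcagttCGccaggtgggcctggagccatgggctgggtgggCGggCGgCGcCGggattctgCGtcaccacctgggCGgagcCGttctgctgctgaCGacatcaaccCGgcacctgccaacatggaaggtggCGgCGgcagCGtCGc
GPR22 promoter, plus strand, chr7:107469807-107470106: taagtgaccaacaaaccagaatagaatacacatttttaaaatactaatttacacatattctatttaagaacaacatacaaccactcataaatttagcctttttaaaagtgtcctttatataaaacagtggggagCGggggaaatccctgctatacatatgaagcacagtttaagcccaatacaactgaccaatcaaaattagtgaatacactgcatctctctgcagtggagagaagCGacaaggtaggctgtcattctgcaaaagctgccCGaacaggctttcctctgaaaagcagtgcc
The SOX5 window held 29 CG dinucleotides at 63.7% GC, the COG5 window 30 at 71.3% GC, and the GPR22 window 3 at 38.3% GC. The median of 34961 promoter windows was 14 CG dinucleotides and 58.7% GC, so the SOX5 and COG5 windows were both above it. Of all windows, 75.7% had fewer CG dinucleotides than SOX5, 77.5% fewer than COG5 and 18.2% fewer than GPR22. By GC content, 63.0% of windows were lower than SOX5, 82.6% lower than COG5 and 8.65% lower than GPR22.

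Short motifs were searched on both strands of the windows, with overlapping matches each counted. The GC box GGGCGG was found in the SOX5 window at 1 position and in the COG5 window at 3, and 45.0% of all windows held it. The SOX core AACAAT was found at 1 position of the SOX5 window, and 10.1% of all windows held it. The GPR22 window held CCAAT at 2 positions and TATAAA at 2, which 34.6% and 11.5% of all windows held. A match describes the letters and is not evidence of a bound factor.

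SW480 peaks were spread along nearly the whole of SOX5 and did not reach its ends. The 121 peaks (exact Poisson interval 100.4 to 145) gave a density of 117 per Mb, against 4.25 per Mb over the whole SW480 list. HCT116 listed 0 peaks in SOX5, where its whole list averaged 7.36 per Mb. In a set of 3351 long protein-coding genes (100 kb or more), 40.2% had at least 1 peak in SW480 and 57.9% in HCT116, so that 42.1% were empty in HCT116 as SOX5 was. At least 10 peaks were found in 1.73% of these genes in SW480 and 1.40% in HCT116. Both genes exceed that in SW480, which is what they were picked for.

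The SW480 run in SOX5 began 52.5 kb inside the 5′ start and ended 18.7 kb before the 3′ end. No SW480 summit lay within 1 kb of either end. In steps of 100 kb from the 5′ start the counts were 3, 8, 8, 13, 14, 12, 13, 17, 13 and 16, with 4 in the last 33 kb. Peaks were thus fewer towards the 5′ start than over the rest of the gene. The nearest SW480 summit to the SOX5 promoter window lay 15.8 kb away, upstream of the gene, and the nearest HCT116 summit lay 633 kb away.

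**Figure D1:**
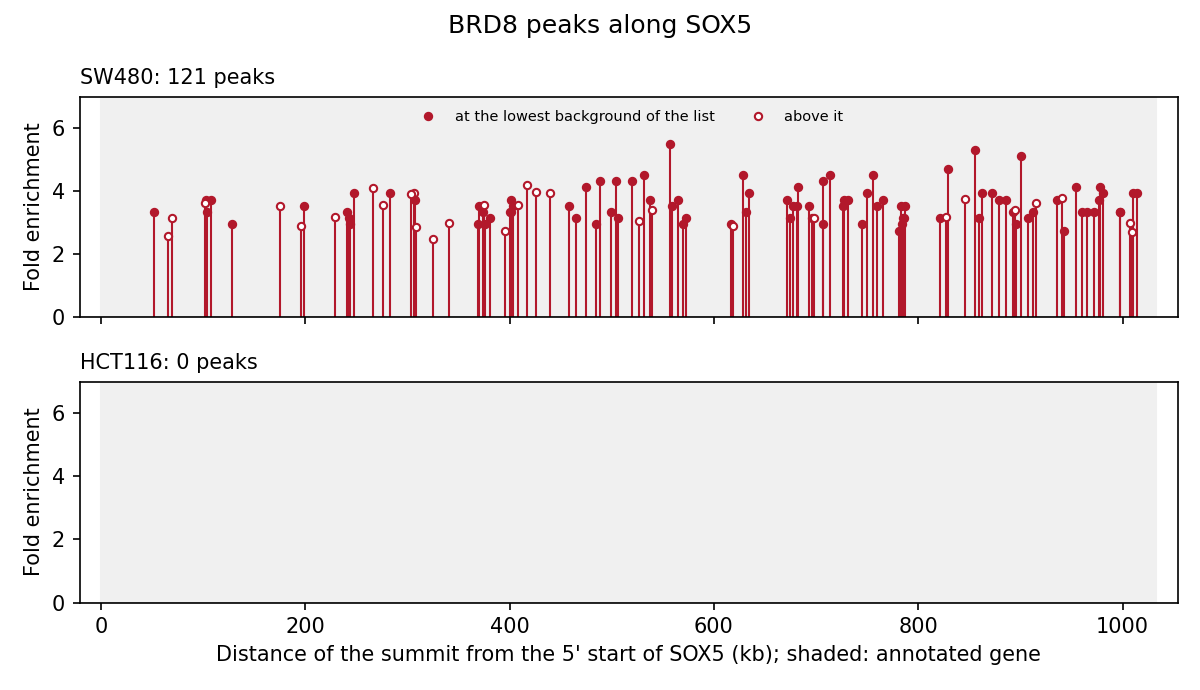
BRD8 peaks along SOX5, with SW480 above HCT116. The x axis is the distance of each summit from the 5′ start of the gene in kb, and the y axis is the authors' fold enrichment. Each stem is 1 peak, and filled points are peaks at the lowest background of the list. The 121 SW480 peaks run along the gene at folds from 2.49 to 5.50, and HCT116 has none.

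The SOX5 peaks were weak and much alike. Fold enrichment, the authors' ratio of signal to local background at the summit, ran from 2.49 to 5.50 with a median of 3.54, against a median of 3.34 for the whole SW480 list. The summit pileup, which is the number of overlapping fragments recovered here from the fold and p-value, ran from 13 to 27 with a median of 17. The list median was 26, and 1 of the 121 SOX5 peaks exceeded it. The folds near the list median therefore came with low pileups over a low background. The −log10 q had a median of 3.36 in SOX5, against 4.37 for the list, and 31 of the 121 peaks were above the list median. None of the SOX5 peaks was among the 1000 SW480 peaks with the highest −log10 q.

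The strongest SOX5 peak by −log10 q lay 557 kb from the 5′ start (chr12:24005390-24005753), with a fold of 5.50, a pileup of 27 and a −log10 q of 10.2. It ranked 1904 in the SW480 list by −log10 q and 523 by fold. The next ones lay at 855 kb (fold 5.31, pileup 26) and 900.3 kb (fold 5.11, pileup 25). All 3 are far inside the gene. At the other end, the weakest had a −log10 q of 1.39, close to the threshold of the list, with pileups of 13 to 15. SOX5 peaks were also narrow, with a median width of 308 bp against 394 bp for the list, and 4.21% of the gene was covered by peak regions.

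The local background under SOX5 peaks was mostly the lowest in the SW480 list. MACS2 takes as background the highest of several estimates, of which the level of the whole library is the floor. The lowest background recovered in the SW480 list, 4.09 fragments, is taken here as this floor. Of the 121 SOX5 peaks, 91 (75.2%, 95% Wilson interval 66.8 to 82.1) lay on it. Over the SW480 list the share was 22.8%, and in the 5 Mb flanks of SOX5 it was 37.4%. The highest background at a SOX5 peak was 8.65 fragments, against a highest of 35.5 in the flanks. At the floor, the median pileup was 17 fragments in SOX5 and also 17 for the other 2842 SW480 floor peaks. A SOX5 peak on the floor was thus no taller than other SW480 peaks on the floor. By chromosome, 27.7% of the SW480 peaks on chromosome 12 and 48.1% of those on chromosome 7 lay on the floor.

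Neighbouring summits in SOX5 were a median of 5.02 kb apart (order-statistic interval 3.78 to 6.28). The smallest of the 120 distances was 331 bp and the largest 46.4 kb, and the middle ones ran from 2.22 to 10.1 kb (25th to 75th percentile). The mean was 8.02 kb and the SD was 1.12 times the mean, so the summits were not evenly spaced. In 13 places neighbours were closer than 1 kb, and in 11 they were over 20 kb apart. The widest gap lay between 24387511 and 24433896. Over the whole SW480 list the median distance was 30.8 kb. In HCT116 it was 14.6 kb over the whole list.

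The noncoding genes inside SOX5 held 1 of the 121 peaks. SOX5-AS1, an antisense long noncoding RNA gene, held 1 of the SW480 summits, with a pileup of 23 over a background of 8.65. The microRNA gene MIR920 held none, and its nearest SW480 summit lay 9.64 kb away. The noncoding gene LOC105369697 also held none. Of 3 promoter windows in SOX5, 0 were overlapped by a peak in SW480 and 0 in HCT116, while 11.0% and 29.4% of all promoter windows were overlapped in these lines.

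COG5 had a shorter and denser run, and it differed from SOX5 at the 5′ end. The 52 SW480 peaks (exact Poisson interval 38.8 to 68.2) gave 143 per Mb, and the single HCT116 peak gave 2.74 per Mb. In steps of 50 kb from the 5′ start the SW480 counts were 5, 15, 3, 8, 9, 9 and 3, with 0 in the last step. The peaks stopped 46.97 kb before the 3′ end. There COG5 overlaps the end of HBP1, a transcriptional repressor gene, which had no SW480 peak inside it or within 1 kb and 3 HCT116 peaks. The peaks of COG5 were unevenly spread along the gene, with groups of close summits that are called clusters below. Whether they group more than randomly placed summits would was not tested.

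The 5′ end of COG5 carried the only peak in either gene that both lines shared. COG5 and the tRNA dihydrouridine synthase-like gene DUS4L start close together on opposite strands, so 1 region covers both starts. In SW480 this region (chr7:107563709-107565196) had a pileup of 123 fragments over a background of 31.1, a −log10 q of 30.6 and a fold of 3.86. In HCT116 the region (chr7:107563695-107565143) had a pileup of 51 over a background of 8.03, a −log10 q of 20.6 and a fold of 5.76. The SW480 region thus had the higher pileup and background, and the lower fold. The summits lay 258 bp upstream of the start in SW480 and 193 bp upstream in HCT116, where the summit falls on base 58 of the printed COG5 window. The regions had nearly the same width, 1488 bp in SW480 and 1449 bp in HCT116.

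Away from that start, the COG5 peaks had folds near those of SOX5, with somewhat higher pileups and a smaller share at the lowest background. The other 51 had pileups from 15 to 42 with a median of 21, backgrounds from 4.09 to 14.7 with a median of 5.20, and folds from 2.38 to 5.90 with a median of 3.46. Of all 52 peaks, 10 had a pileup above the list median of 26, and 15 (28.8%, Wilson interval 18.3 to 42.3) lay at the lowest background, against 22.8% of the list. The share was higher in SOX5, at 75.2%, and the difference was not tested. The 5′ peak ranked 218 in the SW480 list by −log10 q and was the only COG5 peak among the first 1000.

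**Figure D2:**
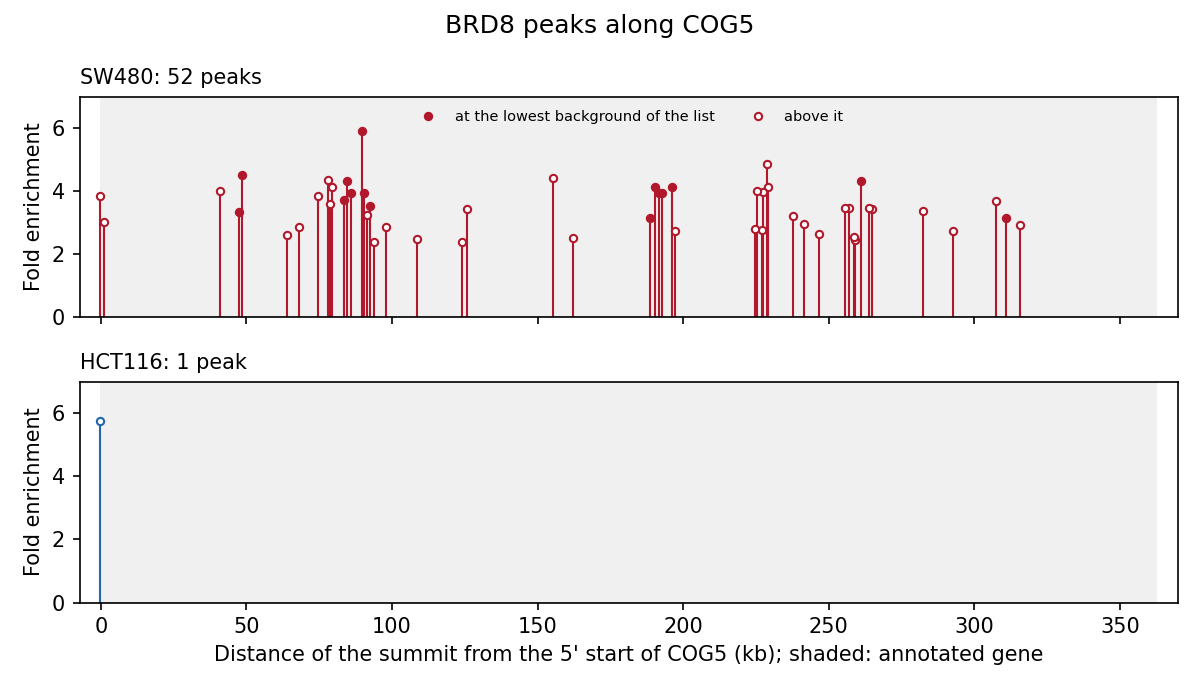
BRD8 peaks along COG5, with SW480 above HCT116. The x axis is the distance of each summit from the 5′ start in kb, the y axis is the authors' fold enrichment, each stem is 1 peak, and filled points are peaks at the lowest background. The 52 SW480 peaks form clusters along the gene, and the single HCT116 peak lies at the 5′ start, at a fold of 5.76.

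One of the clusters covered GPR22, an orphan G protein-coupled receptor gene on the opposite strand inside COG5 (chr7:107470057-107477845), and ran past both of its ends. Neighbouring SW480 summits from 107465990 to 107489411 were at most 3991 bp apart. Of the SW480 summits, 6 lay in GPR22 or within 1 kb of it, and HCT116 had none there. The highest fold in COG5, 5.90, was among them (chr7:107473995-107475407, pileup 29, −log10 q 11.8). The peak over the printed GPR22 promoter window was among the weakest, with a fold of 2.40, a pileup of 18 over a background of 6.92 and a −log10 q of 1.39. Its summit fell on base 175 of the window. The other genes inside COG5, the noncoding LOC124901720 and LOC124901721 and the pseudogene RPL37AP6, held no summit in either line.

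Summits in COG5 were closer together than in SOX5. Their median distance was 2.55 kb (interval 1.51 to 3.99), and the 51 distances ran from 387 bp to 39.8 kb. The mean was 6.19 kb and the SD was 1.38 times the mean. Of these distances 25 were under 2 kb, against 27 of 120 in SOX5. COG5 peak regions had a median width of 405 bp and covered 7.15% of the gene.

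None of the SOX5 peaks and 1 of the COG5 peaks were overlapped by an HCT116 peak. For COG5 this is 1.92% (Wilson interval 0.340 to 10.1). With 0 HCT116 regions in SOX5 and 1 in COG5, these low shares were nearly fixed by the counts that chose the genes. They are not a separate result. Over the whole list 49.1% of SW480 peaks were overlapped by an HCT116 peak, and 24.2% of HCT116 peaks by a SW480 peak. The HCT116 list is the longer of the 2. The flanks also shared few peaks, at 7.42% of the SW480 peaks around SOX5 and 17.8% around COG5. The nearest HCT116 summits to SOX5 lay 904 kb below and 633 kb above the gene. The nearest to COG5 lay 20.7 kb below and, past the shared 5′ peak, 16.1 kb above.

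The SOX5 run did not stop at the gene. The SW480 flanks of 5 Mb held 136 peaks on the low-coordinate side and 201 on the high side, or 27.2 and 40.2 per Mb, so SOX5 was 4.30 times (interval 3.34 to 5.53) and 2.91 times (2.30 to 3.66) as dense. Outwards from the gene in steps of 1 Mb, the low side held 61, 68, 5, 0 and 2 SW480 peaks, and the high side 55, 54, 78, 14 and 0. In HCT116 the same steps held 2, 6, 3, 0 and 4 on the low side and 2, 6, 12, 9 and 4 on the high side. In SW480 the counts dropped within about 2 Mb below SOX5 and within about 4 Mb above it.

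Joining SW480 summits that were at most 250 kb apart gave a stretch from 21437271 to 27920457 on chromosome 12, which is 6.48 Mb long and begins 2092 kb below SOX5 and ends 3358 kb above it. It held 455 SW480 peaks and 37 HCT116 peaks. The next SW480 summit below it was 2164 kb away, and the next above it was 269.8 kb away. Without SOX5 the stretch still had 61.3 SW480 peaks per Mb, and the parts of the flanks outside it had 0.659 per Mb. SOX5 was 1.91 times (1.54 to 2.35) as dense as the rest of the stretch. The stretch was found after its density had been seen, and joining at 100 kb ended it at 24874739 on the high side.

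SW480 peaks in that stretch lay both inside and outside genes. Protein-coding genes other than SOX5 held 68.0 peaks per Mb of gene, and sequence outside protein-coding genes held 54.9 per Mb. ABCC9, which encodes a regulatory subunit of potassium channels gated by ATP, had the most of the low flank, with 27 SW480 peaks and 0 in HCT116. ITPR2, an inositol trisphosphate receptor gene, had the most of the high flank, with 25 and 2. The protein-coding genes next to SOX5 were ETNK1, an ethanolamine kinase gene, with 5 SW480 peaks and 1 HCT116 peak, and LOC124902897, with 9 and 0. Median pileups in ABCC9, ITPR2, ETNK1 and LOC124902897 were 19 to 20 fragments in SW480, against 17 in SOX5. Their median backgrounds were 4.09 to 5.22.

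With summits joined across gaps of at most 250 kb, the stretch around COG5 began 64.7 kb below the gene and ended 431 kb above it. The previous SW480 summit lay 349.9 kb below that stretch and the next 532 kb above it. The first 250 kb of the flanks held 2 SW480 peaks on the low-coordinate side and 14 on the high side. Over 5 Mb on each side, the SW480 flanks held 117 peaks on the low-coordinate side and 40 on the high side, or 23.4 and 8 per Mb, and COG5 was 6.10 times (4.31 to 8.52) and 17.8 times (11.6 to 27.6) as dense. Outwards in steps of 1 Mb the low side held 32, 14, 33, 29 and 9 SW480 peaks, and the high side 17, 1, 1, 2 and 19. In HCT116 the steps held 15, 11, 7, 6 and 9 on the low side and 6, 1, 0, 1 and 5 on the high side.

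Joining SW480 summits at most 250 kb apart gave 70 peaks from 107136685 to 107994956 on chromosome 7, over 0.858 Mb, in which HCT116 had 8. COG5 was 3.91 times (2.25 to 7.11) as dense as the remainder, which had 36.5 SW480 peaks per Mb. RELN, the gene of the secreted glycoprotein reelin, had the most SW480 peaks of the low flank, with 20 and 0 in HCT116. On the high flank it was the readthrough gene DUS4L-BCAP29, with 9 and 2, of which the 5′ peak is shared with COG5. PRKAR2B, a regulatory subunit gene of protein kinase A below COG5, had 1 SW480 peak and 0 in HCT116. DUS4L had 2 and 1.

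**Figure D3:**
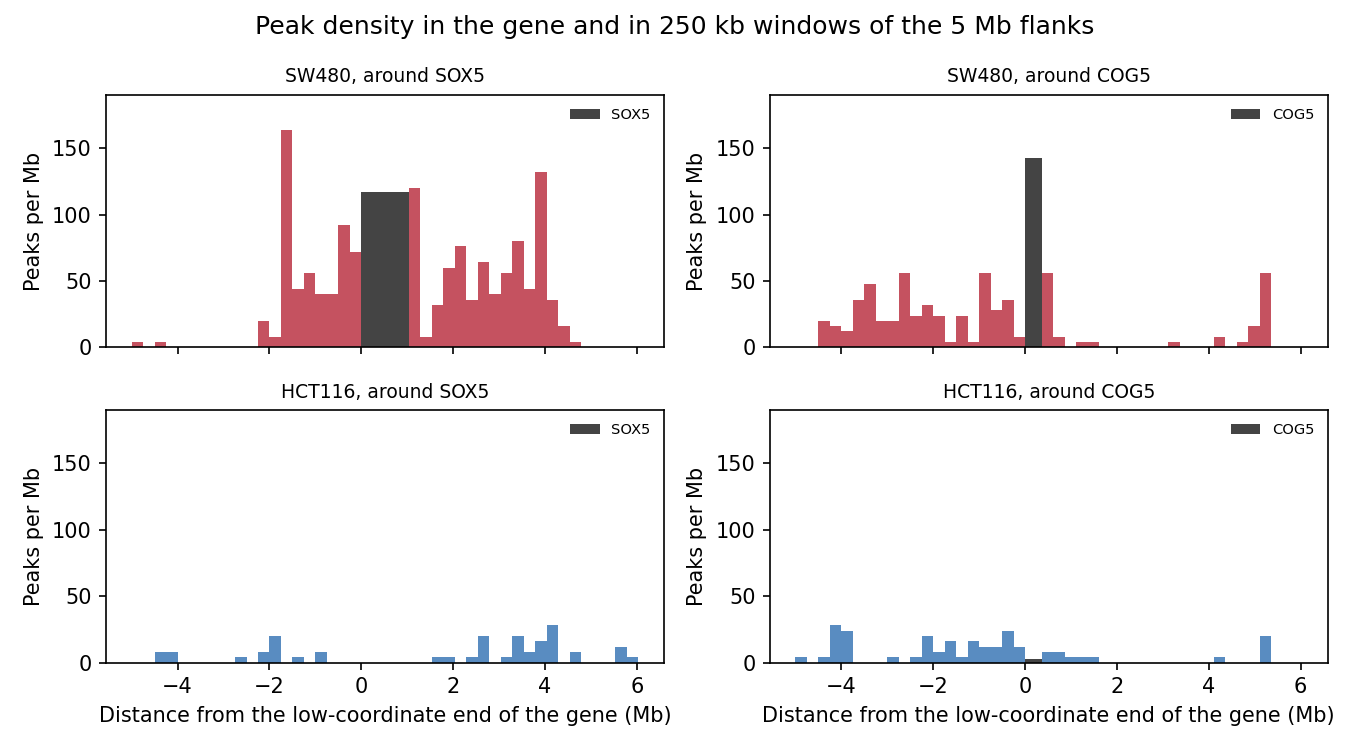
Peak density around SOX5 and COG5. The x axis is the distance from the low-coordinate end of the gene in Mb, and the y axis is peaks per Mb, for SW480 above and HCT116 below. The dark bar is the gene and the coloured bars are 250 kb windows of the flanks. In SW480, SOX5 stands at 117 per Mb against 33.7 per Mb in its flanks, and COG5 at 143 per Mb against 15.7 per Mb. The SOX5 flanks are uneven, and their tallest windows stand above the gene. The fullest, 1.5 to 1.75 Mb on the low-coordinate side, holds 41 SW480 peaks. In HCT116 the flanks hold 4.80 per Mb around SOX5 and 6.10 per Mb around COG5, against 7.36 per Mb over the HCT116 list.

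Pileup and background in the flanks were between those of the genes and those of the list, or near the genes. In the flanks of SOX5 the SW480 median pileup was 19 fragments and the median background 4.38. In the flanks of COG5 they were 20 and 5.24, against 21 and 5.24 in COG5 itself. Whole chromosomes held 7.78 SW480 peaks per Mb on chromosome 12 and 11.9 per Mb on chromosome 7, against 3.63 per Mb over the other chromosomes. Without the stretch around SOX5, chromosome 12 held 4.58 per Mb, and without the stretch around COG5, chromosome 7 held 11.5 per Mb. In HCT116 the whole chromosomes held 10.1 per Mb on chromosome 12 and 6.996 per Mb on chromosome 7, against 7.25 per Mb over the others. In SW480 the share of peaks at the lowest background was 75.2% in SOX5, 37.4% in its flanks and 22.8% over the list. Within the flanks, low background did not go with higher density. The low-coordinate flank of SOX5 (27.2 per Mb) had a median background of 4.095 fragments. The denser high side (40.2 per Mb) had 4.904, with 28.86% of its peaks at the lowest background. COG5 was denser than SOX5 and had a smaller share at the lowest background. The part of the low background in the number of peaks called was not tested.

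**Figure D4:**
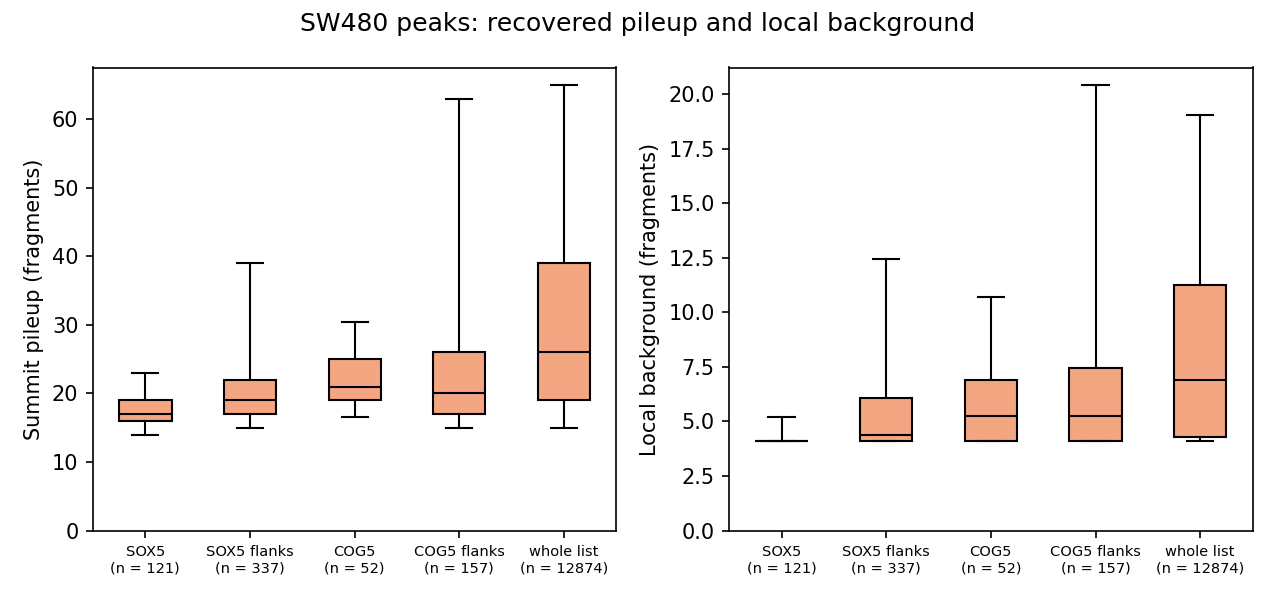
Summit pileup (left) and local background (right) of SW480 peaks, in fragments, for SOX5, COG5, their 5 Mb flanks and the whole list. Boxes show the median and the 25th to 75th percentiles, and whiskers the 5th to 95th percentiles over peaks. SOX5 has the lowest pileups, with a median of 17, and its box for the background collapses onto the floor of 4.09.

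Among long genes, SOX5 had the highest SW480 count and COG5 the second. MAGI2, a synaptic scaffold gene with 49 SW480 peaks and 0 in HCT116, and SEMA3A, a semaphorin gene with 39 and 2, came next. COG5 was therefore close in count to a gene that was not picked. By density SOX5 ranked 5 and COG5 ranked 2, and ABCC9, in the stretch of SOX5, was highest at 184.9 per Mb. These ranks moved with the settings: at a −log10 q of at least 5 SOX5 had 19 peaks and ranked 58, and among genes of at least 50 kb SOX5 ranked 16 and COG5 ranked 8. The largest differences of SW480 minus HCT116 counts were 121 in SOX5, 51 in COG5, 49 in MAGI2, 37 in SEMA3A, and 27 each in ABCC9, AOPEP and ZNF804B. Of these 7 genes, 4 lie on chromosome 7 and 2 on chromosome 12, and AOPEP, an aminopeptidase gene, lies on chromosome 9. Of all SW480 peaks, 14.7% lay on chromosome 7 and 8.05% on chromosome 12. HCT116 has long genes with many peaks too, up to 113 in 1 gene.

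**Figure D5:**
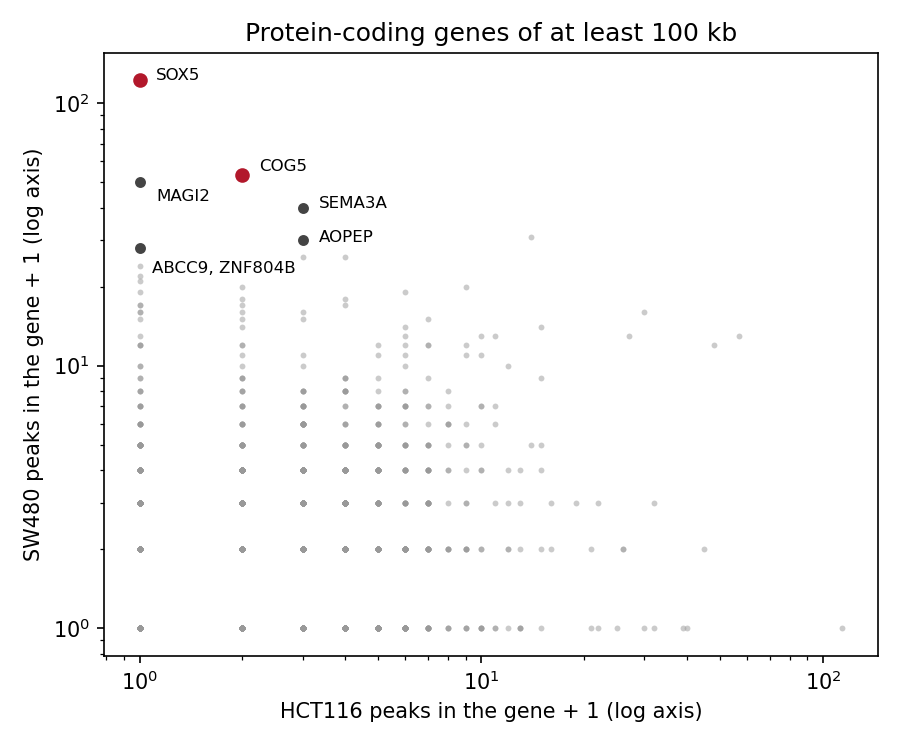
Number of SW480 peaks plus 1 (y axis) against HCT116 peaks plus 1 (x axis) for 3351 protein-coding genes of at least 100 kb, both on log axes. Each point is 1 gene. SOX5 and COG5 (red) stand at 121 and 52 SW480 peaks with 0 and 1 in HCT116, and MAGI2 lies just under COG5 at 49.

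Likeness to each gene was measured as the distance in log2(peaks per Mb + 1) over both libraries, which gives only 2 values per gene. The 5 genes nearest to SOX5 were CALCR, the calcitonin receptor gene, LMNTD1, PRR5L, VPS50 and ISM1, at distances from 0.152 to 0.476. Their SW480 densities ran from 83.8 to 105 per Mb, with 9 to 16 peaks each, and HCT116 listed none in any of them. LMNTD1 lies in the stretch of SOX5 itself, at 91.7 per Mb. The 5 nearest to COG5 were SEMA3A, AOPEP, SEMA3D, ELAPOR2 and MGAT5, at distances from 1.03 to 1.48. Their SW480 densities ran from 50.5 to 72.4 per Mb and their HCT116 counts were 1 or 2, so none came close to the 143 per Mb of COG5. SEMA3A, SEMA3D and ELAPOR2 also lie on chromosome 7.

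Of the 3 SOXD genes, 1 had a SW480 peak and 2 an HCT116 peak, in the gene or within 1 kb. Over all protein-coding genes these shares were 29.8% and 52.3%. SOX5 had 121 SW480 peaks, and SOX6 and SOX13 had 0. In HCT116, SOX5 had 0 peaks, SOX6 had 2 and SOX13 had 3. The higher of the 2 SOX6 peaks, at a fold of 5.43, lay 0.196 kb from an end of the gene.

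Of the 8 genes of the conserved oligomeric Golgi complex, 3 had a SW480 peak and 7 an HCT116 peak, in the gene or within 1 kb. By this count the shares over all protein-coding genes were 29.8% and 52.3%. Apart from COG5, the SW480 peaks were 1 at COG4 and 2 at COG8, with top folds of 5.10 and 4.40. HCT116 had 1 peak at each of COG1, COG2, COG4 and COG7 and 2 at each of COG3 and COG8, with top folds from 3.83 at COG7 to 9.70 at COG4. In each of these 6 genes the highest HCT116 peak lay within 0.403 kb of a gene end, as the COG5 peak did at 0.193 kb. COG6 had 0 peaks in both lines. Counted as any peak within 1 kb of a gene end, 3 of the 8 genes (COG4, COG5 and COG8) had one in SW480 and 7 in HCT116, and over all protein-coding genes the shares were 22.1% and 44.0%.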

How the data were processed

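The deposited files are 1 peak list per BRD8 library, without pooling. Per the labels' protocols, cells were fixed for 10 minutes in 1% formaldehyde. Per the submitters' processing notes, Trimmomatic 0.33, Bowtie2 2.4.1, MACS2 and deepTools were used with GRCh38; no source used here gives the caller options. The deposited fold is the ratio of summit pileup to local background after adding 1 to both. The p-value and q-value at the summit were deposited as −log10 values, the lists end at a q of 0.05, and the deposited score, 10 times −log10 q, was not used further. The lists give no read totals, so depth is known only as summit pileups.

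Pileup and background were solved from fold and p (relative tolerance 0.0001) for 99.992% of SW480 and 99.996% of HCT116 peaks, after a check on simulated data. Genes and promoters came from RefSeq GRCh38.p14, which names both genes; positions are 1-based. Python 3.11.15 and SciPy 1.17.1 were used. No test was made, since each line has 1 library. Count intervals are exact Poisson, shares Wilson and density ratios exact conditional binomial, all at 95%. Named genes were the 2 genes, their families, neighbours, the 5 nearest in density, the 5 largest count differences with ties, and the leading gene of each flank. The members and lists were chosen with earlier results of these data known. Alternatives covered the threshold, list length, margins, flanks and overlap.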

Additional observations from a re-analysis of the deposited data

How the results depend on the processing

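Of 101 recomputed values, 81 stayed within 1.5 times (counts) or within the counting interval (other values), and 20 did not. Some of the 81 could not move, so their number does not measure how robust the results are. Every region has 1 summit, so keeping 1 per region changed nothing. Equal list lengths shorten only the HCT116 list, so SW480 counts, densities, spacings, backgrounds and ranks were fixed there. By the rule above, that setting moved none of the values for which it was run. The HCT116 density in COG5 over its flanks still went from 0.450 to 0.885. That is inside its counting interval, 0.0112 to 2.60, which rests on 1 peak in the gene. The HCT116 count of 0 in SOX5 could not change at a stricter −log10 q. With a −log10 q of at least 5, SOX5 had 19 SW480 peaks and COG5 17. The density over the flanks was then 2.32 for SOX5 and 13.3 for COG5, the median spacing 25.8 and 11.2 kb, and SOX5 ranked 58 by density among long genes. The fall in count and rank follows from the low −log10 q of most SOX5 peaks. The SOX5 density over its flanks was 2.02 with flanks of 1 Mb, 1.97 with 2 Mb, 6.53 with 10 Mb and 1.91 against the rest of its stretch. For COG5 it was 5.82 with 1 Mb and 3.91 against the rest of its stretch. Among genes of at least 50 kb the density ranks were 16 for SOX5 and 8 for COG5, and among genes of at least 200 kb COG5 ranked 1. The median background of SOX5 peaks above the floor was 4.80. With no margin at the gene ends HCT116 had 0 peaks in COG5. Joining at 100 kb left 282 SW480 peaks in the SOX5 stretch, and joining at 500 kb gave 185 in the COG5 stretch, both chosen after seeing the data. No paired analysis was possible because each line has 1 BRD8 library.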
